A study of Mus musculus with 6 samples.

Results

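Described here are 10 genes of coenzyme Q synthesis and of the defences against ferroptosis that act beside glutathione peroxidase 4 (GPX4), namely Aifm2, Dhodh, Gch1, Vkorc1l1, Pdss1, Pdss2, Coq2, Coq3, Coq7 and Coq9. They were taken by symbol from the deposited expression table, in which each matched 1 of 54532 genes. Polyadenylated RNA was sequenced from wild-type mouse ovarian granulosa cells, the somatic cells around the oocyte, grown in serum-containing medium. The untreated group held 3 libraries, and the cyclophosphamide group held 3 libraries of cells given this alkylating chemotherapy drug for 24 h after an initial period of adherent culture, as a culture model of premature ovarian failure. The treatment label of the second group instead names an injection into the animal, the drug dose was not given in the sources used here, and nothing says that the replicates of a group came from separate cultures, so p-values measure only the spread between these libraries. No label names serine as a treatment, although the series title concerns serine and ferroptosis, and no cell line is named.

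Ferroptosis is an iron-dependent death in which phospholipids of the membrane are peroxidised. GPX4 removes lipid peroxides with glutathione, and a second line of defence uses small lipid-soluble molecules that trap the radicals. Reduced coenzyme Q (ubiquinol) is one of these. It is made in mitochondria from a benzoate ring and an isoprenoid tail, and FSP1, encoded by Aifm2, regenerates it at the plasma membrane, while DHODH reduces it in the inner mitochondrial membrane. Tetrahydrobiopterin, whose synthesis starts with GCH1, and the reduced form of vitamin K, which VKORC1L1 can make, act in the same manner.

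Of the 10 genes, 1 rose with cyclophosphamide (Gch1), 2 fell (Pdss1 and Coq7) and 7 did not pass the threshold (limma on log2(FPKM + 0.1), Benjamini-Hochberg adjusted p under 0.05 over 14885 genes, where FPKM are fragments scaled to gene length and library size). Over all genes tested 68.9% passed, 33.1% higher and 35.8% lower. That split moved with the scaling. Upper-quartile scaling called 4220 genes higher against 6003 lower, whereas with total reads as the scale the calls were 5247 higher against 5045 lower. The median log2 fold change of the 10 genes was -0.02, and that of all genes tested was also -0.02, and the median size of the change regardless of sign was 0.15, against 0.57 over all genes. In size of change 8 of the 10 genes lay below the percentile 30 of all genes, a cut chosen after the values were seen. The FPKM ranges of the groups did not overlap for 5 of the 10 genes, against 73.1% of all genes tested. All 10 genes passed the filter on low reads, with standard errors of 0.06 to 0.19, around the median of 0.12 over all genes.

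The libraries held 16458385 to 17607586 reads, and 20940 to 21920 genes were detected in each. Of 10 granulosa markers 8 were measurable, of which 6 fell and 1 rose, and the list summed to 2589 to 2744 FPKM per untreated library and 994 to 1288 FPKM per treated one. Foxl2, a defining transcription factor, was at 32.5 FPKM untreated and 23.9 FPKM treated, Nr5a1 at 42.6 and 53.3 FPKM, and Amhr2 at 22.9 and 13.98 FPKM, while most of the sum came from the inhibin subunit genes Inha (1984 and 905 FPKM) and Inhba (574 and 90.4 FPKM). Of the other defining genes, 2 were near 0, Amh with 16 reads over the untreated group and 22 over the treated one, and Cyp19a1, the aromatase gene, with 3 and 1. Of 5 markers each, 4 theca and stroma genes and 4 surface epithelium genes were tested, of which 2 and 3 fell. The summed theca and stroma level went from 25.0 to 30.8 FPKM to 7.87 to 9.33 FPKM, and the epithelial one from 106 to 119 FPKM to 50.1 to 73.1 FPKM. Most of the first sum came from Col1a1 (14.1 and 3.57 FPKM) and Col3a1 (12.5 and 3.64 FPKM). Most of the second came from Krt8 (51.1 and 23.0 FPKM) and Krt18 (60.7 and 35.7 FPKM). Pdgfra (0.82 and 1.11 FPKM), Dcn and Msln did not pass. Of 5 macrophage markers only Csf1r was tested, and it rose, while Ptprc, Adgre1, Tyrobp and C1qa held at most 10 reads each per group (summed FPKM 1.62 to 1.79 and 5.04 to 5.29). Of 5 oocyte markers 2 were tested (summed FPKM 0.66 to 0.85 and 2.29 to 3.68). Gdf9 rose (0.40 and 2.40 FPKM), and Ddx4 did not pass (log2 fold change 0.49 ± 0.42, SE, limma, adjusted p = 0.32). Bmp15 and Zp3 held at most 11 reads each per group, and Figla had no reads in any library. Among 4 endothelial markers only Cdh5 had reads enough to be tested and did not pass (list sum 0.17 to 0.38 and 0.18 to 0.50). The part of these markers in the changes below was not tested. In bulk RNA, fewer cells of a type and less RNA per cell cannot be told apart.

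The 10 genes are annotated as protein-coding, and the changes are given for whole genes (GENCODE M21, GRCm38), with Dhodh (ENSMUSG00000031730) on chromosome 8 from 109591343 to 109608673, Vkorc1l1 (ENSMUSG00000066735) on chromosome 5 from 129941970 to 129986692, Coq2 (ENSMUSG00000029319) on chromosome 5 from 100654723 to 100675140. The annotation has Pdss2 (ENSMUSG00000038240) on chromosome 10 from 43221486 to 43464882, Coq3 (ENSMUSG00000028247) on chromosome 4 from 21879673 to 21912162, Coq9 (ENSMUSG00000031782) on chromosome 8 from 94838321 to 94854895. The other four are placed where they are described.

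The upstream sequences of the 3 genes that passed the test are shown because the changes described below are changes in the RNA made from them. Each is the 250 bases before the RefSeq start of the gene (GRCm38.p6), written 5′ to 3′ on the strand of the gene, with matches to the motifs searched in capitals. Of the 10 genes 9 had an entry, and Dhodh had none.
Pdss1, chr2:22895272-22895521, plus strand: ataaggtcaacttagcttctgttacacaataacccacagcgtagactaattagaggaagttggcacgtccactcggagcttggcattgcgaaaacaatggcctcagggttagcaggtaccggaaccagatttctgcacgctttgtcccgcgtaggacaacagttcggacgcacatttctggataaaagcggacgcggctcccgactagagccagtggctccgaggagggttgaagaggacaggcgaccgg
Coq7, chr7:118533357-118533606, minus strand: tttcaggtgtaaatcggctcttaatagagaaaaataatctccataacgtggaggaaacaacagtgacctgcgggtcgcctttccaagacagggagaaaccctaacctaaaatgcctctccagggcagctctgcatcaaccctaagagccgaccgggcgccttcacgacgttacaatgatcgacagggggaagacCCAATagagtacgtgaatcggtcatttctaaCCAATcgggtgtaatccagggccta
Gch1, chr14:47189414-47189663, minus strand: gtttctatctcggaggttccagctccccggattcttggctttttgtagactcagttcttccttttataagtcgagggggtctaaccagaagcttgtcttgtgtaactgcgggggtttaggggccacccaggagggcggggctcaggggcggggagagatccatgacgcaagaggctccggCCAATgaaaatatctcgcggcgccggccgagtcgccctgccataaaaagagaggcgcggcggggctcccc
The motifs, searched on both strands, were the antioxidant response element core TGACNNNGC, the amino acid response element TGATGNAA, the cyclic AMP response element TGACGTCA, the E-box CACGTG, the NRF1 core and the CCAAT box. The Coq7 sequence held 2 CCAAT boxes, which began 56 and 25 bases before the start, and the Gch1 sequence held 1, at 70 bases. No motif of the list matched the Pdss1 sequence. Of 32851 promoter windows, 33.8% held a CCAAT box within these 250 bases, 10.2% the antioxidant core, 4.98% the NRF1 core, 3.45% the amino acid element, 6.02% the E-box and 1.55% the cyclic AMP element. Among the other genes, Vkorc1l1 held a CCAAT box, Coq2 an NRF1 core and Coq9 an antioxidant core. By the GENCODE coordinates given above, these matches lie after the start of the gene. The Coq2 window is inside the gene, and 139 bases of the Vkorc1l1 window and 92 of the Coq9 window are the gene's own exon. A match is a description of letters and not a site of binding. Of the Pdss1 window, 201 bases are also annotated as exon of A130006I12Rik, a gene on the opposite strand.

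**Figure D1:**
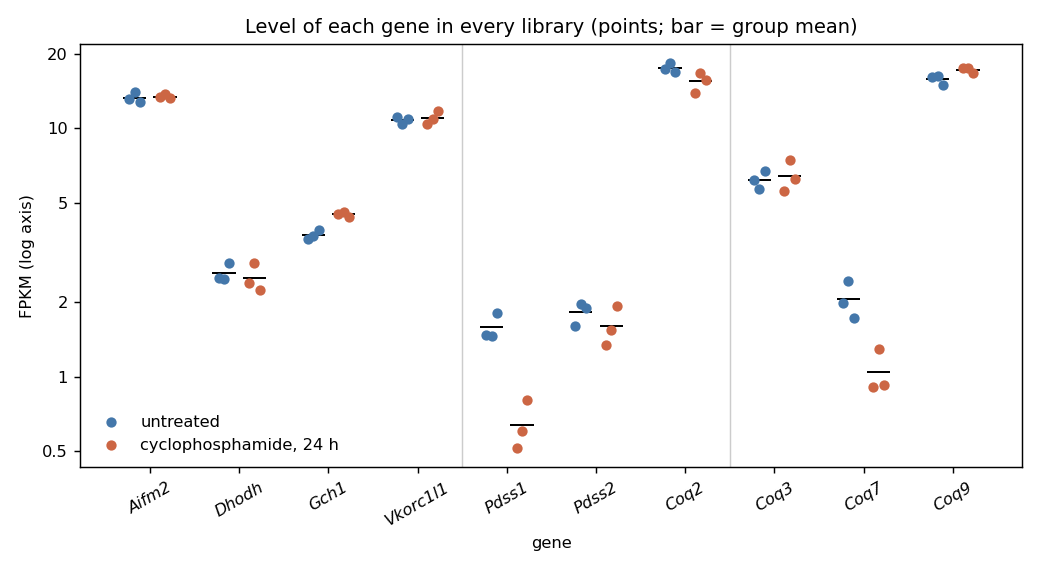
FPKM of the 10 genes (vertical log axis) in each of the 3 untreated and 3 cyclophosphamide libraries, with a short line at the group mean; grey lines part the defence genes, the tail and attachment genes and the ring genes. The groups lie apart for Gch1, Pdss1, Coq2, Coq7 and Coq9, and most widely for Pdss1, at 1.46 to 1.81 FPKM untreated and 0.51 to 0.80 with cyclophosphamide.

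The gene of FSP1 stayed within a narrow range. Aifm2 had 13.2, 14.01 and 12.7 FPKM in the untreated libraries and 13.4, 13.8 and 13.2 FPKM in the cyclophosphamide libraries, from 887 to 1016 reads per library. All 3 treated values lay inside the untreated range. The log2 fold change was 0.02 ± 0.07 (SE, limma, adjusted p = 0.84), and its 95% interval ran from 0.91-fold to 1.12-fold. Only 1.5% of the genes tested had a change of this size or smaller. Aifm2 (ENSMUSG00000020085) is a protein-coding gene on chromosome 10 from 61715263 to 61739260, and 5.65% of its exon bases overlap exons of H2afy2 on the opposite strand, whose reads cannot be told apart if the counting did not use strand.

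Dhodh, whose product links pyrimidine synthesis to the ubiquinone pool, was measured at 2.49, 2.46 and 2.88 FPKM untreated and at 2.39, 2.86 and 2.24 FPKM with cyclophosphamide. The ranges overlapped, and the highest treated library lay just below the highest untreated one. The log2 fold change was -0.07 ± 0.13 (SE, limma, adjusted p = 0.68), with an interval of 0.77-fold to 1.19-fold. Vkorc1l1, the paralog of the vitamin K epoxide reductase gene, had 11.1, 10.4 and 10.9 FPKM untreated and 10.4, 10.9 and 11.8 FPKM treated. Its log2 fold change was 0.03 ± 0.07 (SE, limma, adjusted p = 0.76) and its interval 0.91-fold to 1.14-fold. For Aifm2 and Vkorc1l1 the sign was negative under upper-quartile scaling, which moved the median of all genes by -0.11, and relative to that median both stayed positive.

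Gch1, the gene of the rate-limiting enzyme of tetrahydrobiopterin synthesis, rose by a small step. It had 3.58, 3.68 and 3.90 FPKM in untreated libraries and 4.54, 4.62 and 4.42 FPKM in cyclophosphamide libraries, from 366 to 518 reads. Every treated library lay above every untreated one. The group means were 3.72 ± 0.16 and 4.53 ± 0.10 FPKM (SD, n = 3), and the fold change was 1.21, with an interval of 1.05 to 1.399 (log2 fold change 0.28 ± 0.09, SE, limma, adjusted p = 0.025). The call did not hold without untreated replicate 1 (0.25), untreated replicate 2 (0.27), cyclophosphamide replicate 2 (0.26) or cyclophosphamide replicate 3 (0.29), nor with upper-quartile scaling (0.17, adjusted p = 0.14 in limma), while these values kept the sign. Relative to the median of all genes the upper-quartile value was 0.29 and the reported one 0.30. Gch1 (ENSMUSG00000037580) lies on chromosome 14 from 47153895 to 47189413.

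Of the 3 genes that make and attach the isoprenoid tail, Pdss1 fell and the other two did not pass the test. Pdss1 and Pdss2 encode the 2 subunits of the enzyme that builds the tail, and Coq2 encodes the transferase that joins it to the ring. Pdss1 had 1.47, 1.46 and 1.81 FPKM untreated and 0.51, 0.60 and 0.80 FPKM with cyclophosphamide, from 102, 108 and 130 reads and from 36, 46 and 59 reads. The highest treated library was below the lowest untreated one. Pdss1 fell to 0.44 of its untreated level, with an interval of 0.32 to 0.59 (log2 fold change -1.19 ± 0.19, SE, limma, adjusted p = 0.00072). At this low level the log2 value depended on the pseudocount, being -0.65 with a pseudocount of 1 and -1.26 in limma-voom on reads recovered from the table, and the call held in both. Pdss1 (ENSMUSG00000026784) lies on chromosome 2 from 22895522 to 22940266, and 4.57% of its exon bases overlap exons of Abi1 on the opposite strand, which had 6781 reads untreated and 13172 with cyclophosphamide.

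Pdss2 was measured at 1.601, 1.96 and 1.89 FPKM untreated and 1.33, 1.53 and 1.92 FPKM with cyclophosphamide. The ranges overlapped, and cyclophosphamide replicate 3 was within the untreated range. The log2 fold change was -0.19 ± 0.17 (SE, limma, adjusted p = 0.35), with an interval of 0.67-fold to 1.15-fold. Leaving out cyclophosphamide replicate 1 gave -0.07 and leaving out cyclophosphamide replicate 3 gave -0.32, neither past the threshold. Pdss2 spans 243 kb, and the 1832 tested genes that span at least 100 kb had a median log2 fold change of -0.66, with 62.0% of them lower. Whether the span of a gene has a part in the values given here was not tested. Within each library the log2 ratio of Pdss1 to Pdss2 was -0.12, -0.40 and -0.06 untreated and -1.22, -1.21 and -1.16 with cyclophosphamide. It differed by -1.01 between the groups without overlap (exact permutation test, two-sided, p = 0.1, the smallest that 3 against 3 libraries can give, adjusted p = 0.133 over 4 ratios, as also for the Vkorc1l1 to Vkorc1 and Aifm2 to Gpx4 ratios given later). The within-sample log2 ratio Pdss1/Pdss2 differed by -0.53 when a pseudocount of 1 was added to both genes.

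Coq2 had 17.3, 18.3 and 16.95 FPKM untreated and 13.96, 16.8 and 15.7 FPKM with cyclophosphamide. The ranges lay next to each other without overlap, and the fold change of 0.88 had an interval of 0.77 to 1.005 (log2 fold change -0.18 ± 0.08, SE, limma, adjusted p = 0.079). Without cyclophosphamide replicate 2, or with upper-quartile scaling, the value passed the threshold (-0.24 and -0.29), and without cyclophosphamide replicate 1 it shrank to -0.11.

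Among the genes that modify the ring, Coq7 fell and its partner did not pass the test. Coq7 encodes the hydroxylase of the last but one step, and COQ9 is a lipid-binding protein that presents the substrate to it. Coq7 had 1.99, 2.42 and 1.73 FPKM in untreated libraries and 0.91, 1.29 and 0.93 FPKM in cyclophosphamide libraries, from 188 to 272 and from 96 to 149 reads. The groups did not overlap, and the fold change was 0.53, with an interval of 0.39 to 0.72 (log2 fold change -0.91 ± 0.19, SE, limma, adjusted p = 0.0029). With a pseudocount of 1 the log2 value was -0.58 and the call held. Coq7 (ENSMUSG00000030652) lies on chromosome 7 from 118509659 to 118533356.

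Coq9 had 16.2, 16.2 and 15.03 FPKM untreated and 17.5, 17.6 and 16.7 FPKM with cyclophosphamide. Every treated library was above every untreated one, but the fold change of 1.09, with an interval of 0.99 to 1.21, did not pass the threshold (limma, adjusted p = 0.10), and it did so only with scaling to total reads (log2 fold change 0.17) among the alternatives tried. Exons of Ciapin1 on the opposite strand overlap 1.24% of the Coq9 exon bases. Coq3, the methyltransferase of both O-methylation steps on the ring, had 6.23, 5.70 and 6.73 FPKM untreated and 5.57, 7.48 and 6.28 FPKM treated. The treated libraries held both the lowest and the highest value of Coq3, and its log2 fold change was 0.04 ± 0.12 (SE, limma, adjusted p = 0.76), with an interval of 0.85-fold to 1.26-fold.

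**Figure D2:**
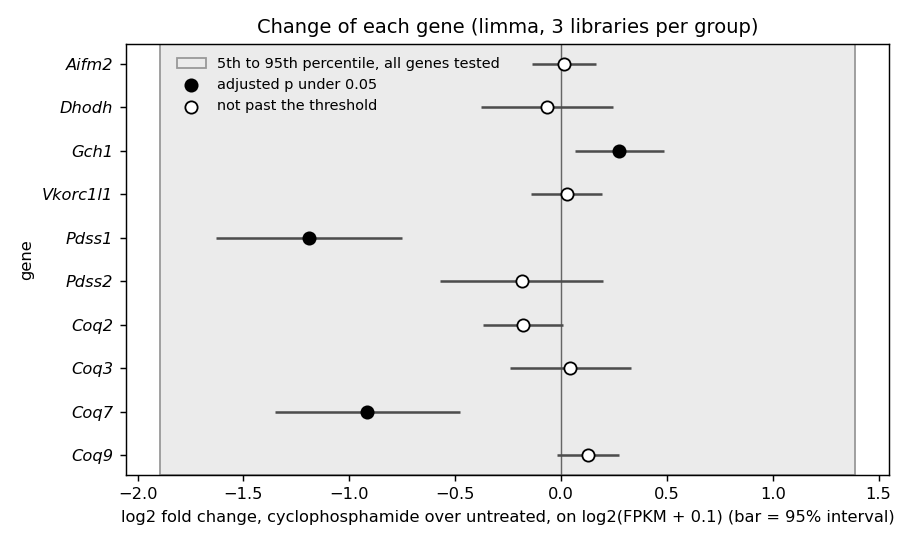
Log2 fold change of each gene with its 95% interval (horizontal axis, cyclophosphamide over untreated, n = 3 libraries per group); filled points passed the adjusted threshold, and the grey band spans the percentiles 5 to 95 of all genes tested. Pdss1 (-1.19) and Coq7 (-0.91) stand to the left, Gch1 (0.28) to the right, and the other intervals cross 0.

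The intervals bound the change only under the reported scaling and for the spread between these libraries. Upper-quartile scaling moved the median of all genes by -0.11, a shift that the intervals leave out. For 8 of the 10 genes, all but Pdss1 and Coq7, the 95% interval of the fold change lay within 1.5-fold in either direction, a limit chosen after the values were seen, and this held for 27.1% of all genes tested. The spread between replicates, as the SD over the mean within a group, ranged from 2.08% for Aifm2 in the cyclophosphamide group to 23.1% for Pdss1 in the same group.

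In order of mean FPKM the untreated libraries ranked Coq2 (17.5), Coq9 (15.8), Aifm2 (13.3), Vkorc1l1 (10.8), Coq3 (6.22), Gch1 (3.72), Dhodh (2.61), Coq7 (2.05), Pdss2 (1.82) and Pdss1 (1.58). The ranges of neighbours in this order were separate except for Coq7 with Pdss2 and Pdss2 with Pdss1. With cyclophosphamide Coq9 (17.3) and Coq2 (15.5) changed places with overlapping ranges, and Coq7 (1.04) came after Pdss2 (1.597), these 2 with separate ranges. FPKM divides by the merged exons of all annotated transcripts, which for Coq7 is 6434 bases while its longest coding transcript has 1215. Per kilobase of the longest coding transcript, a scale added after the values were seen, the untreated mean of Coq7 was 10.8, close below Vkorc1l1 at 11.8 and above Gch1 at 8.38 and Dhodh at 8.10, so the order of levels between genes depends on the length used. The length cancels in a plain ratio of FPKM between groups. With a fixed pseudocount, the reported log2 fold change of a low gene also depends on it.

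**Figure D3:**
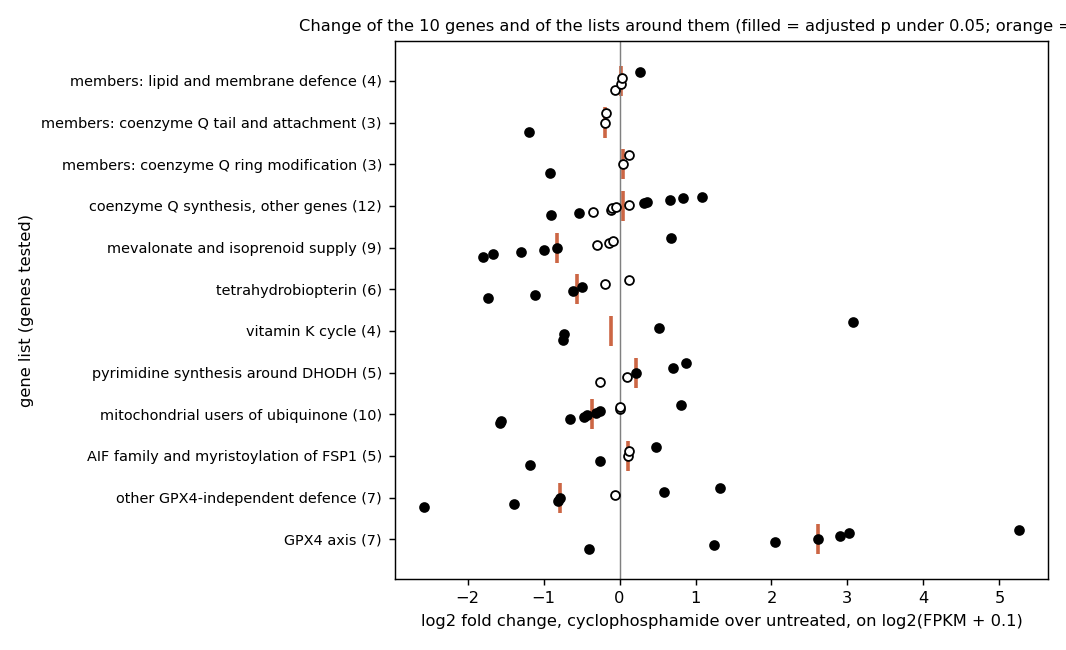
Log2 fold change (horizontal axis, cyclophosphamide over untreated) of the 10 genes in 3 sets and of the tested genes in 9 lists around them; filled points passed the adjusted threshold and the orange line is the median of the list. The defence genes lie between -0.07 and 0.28, while the GPX4 axis reaches 5.25.

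The other genes of coenzyme Q synthesis moved in both directions. Of 13 listed, 12 were tested, 5 rose and 2 fell, with a median log2 fold change of 0.04. Coq10a, a lipid-binding protein that coenzyme Q needs to act in respiration, rose from 6.34 ± 0.32 to 13.6 ± 1.57 FPKM (SD, n = 3; log2 fold change 1.08 ± 0.10, SE). Pptc7, a mitochondrial phosphatase, rose from 9.67 ± 0.22 to 17.4 ± 1.003 FPKM (0.84 ± 0.07). The 2 atypical kinases of the pathway changed in opposite directions, Coq8a from 6.04 ± 0.20 to 3.20 ± 0.37 FPKM (-0.90 ± 0.11) and Coq8b from 2.60 ± 0.24 to 4.17 ± 0.20 FPKM (0.66 ± 0.11). Coq5, a ring methyltransferase gene, rose by 0.32 ± 0.07. Coq4 was lower at -0.54 ± 0.19 (limma, adjusted p = 0.038), a call lost with scaling to total reads (-0.49), without the filter on low reads, and without any one of 5 libraries, with values of -0.55, -0.49 and -0.57 without untreated replicates 1, 2 and 3, and of -0.39 and -0.46 without cyclophosphamide replicates 1 and 2. Coq8b, Coq5 and Coq4 were named after their values were seen. Over the 6 synthesis genes described above and these 12, 5 rose, 4 fell and 9 did not pass.

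Of 9 tested genes that supply the isoprenoid precursors, 5 fell and 1 rose (35.8% and 33.1% of all genes tested), with a median of -0.82. Acat2, which makes acetoacetyl-CoA, fell from 10.4 ± 1.08 to 2.95 ± 0.67 FPKM (SD, n = 3; log2 fold change -1.80 ± 0.17, SE), and Mvk, mevalonate kinase, from 6.31 ± 0.65 to 2.52 ± 0.44 FPKM (-1.30 ± 0.14). Fdps, named after its values were seen, was called at -1.66 ± 0.25 from 163 reads untreated and 39 treated, and was -0.58 with a pseudocount of 1. Ggps1, which makes the isoprenoid geranylgeranyl diphosphate, rose from 13.5 ± 1.12 to 21.5 ± 0.28 FPKM (0.67 ± 0.07). The adjusted p of these 4 genes in limma was at most 0.0005.

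In the tetrahydrobiopterin pathway beyond Gch1, 4 of 6 tested genes fell (35.8% of all genes tested), with a median of -0.56. The other two, Spr (0.13 ± 0.08) and Pcbd2 (-0.19 ± 0.25), did not pass and were named after their values were seen. Pts, the step after Gch1, fell from 2.68 ± 0.23 to 1.19 ± 0.19 FPKM (log2 fold change -1.11 ± 0.15, SE), and Pcbd1, which regenerates the cofactor, from 26.2 ± 2.23 to 17.1 ± 2.60 FPKM (-0.62 ± 0.11). Gchfr, the feedback regulator of GCH1, had 3 reads over the untreated group and 0 over the treated one, too few to show a difference.

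In the vitamin K cycle all 4 genes passed the test, 2 in each direction, where 68.9% of all genes tested passed. Nqo1, a quinone reductase that also acts on vitamin K, rose from 10.1 ± 1.08 to 86.4 ± 13.3 FPKM (log2 fold change 3.08 ± 0.12, SE). Ggcx, the vitamin K-dependent carboxylase, fell from 8.47 ± 0.30 to 5.05 ± 0.44 FPKM (-0.74 ± 0.09). Vkorc1 fell from 4.399 ± 0.68 to 2.70 ± 1.001 FPKM (-0.74 ± 0.27, limma, adjusted p = 0.039), a call lost without cyclophosphamide replicate 2 (-0.42), untreated replicate 1 (-0.64) or untreated replicate 2 (-0.74), or without the filter on low reads. The log2 ratio of Vkorc1l1 to its paralog Vkorc1 was 1.29 ± 0.21 untreated and 2.06 ± 0.59 with cyclophosphamide (SD, n = 3, exact permutation test, p = 0.1), without overlap of the groups, where the highest untreated library (1.52) was next to the lowest treated one (1.53). The difference of 0.77 was 0.45 without cyclophosphamide replicate 2.

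**Figure D4:**
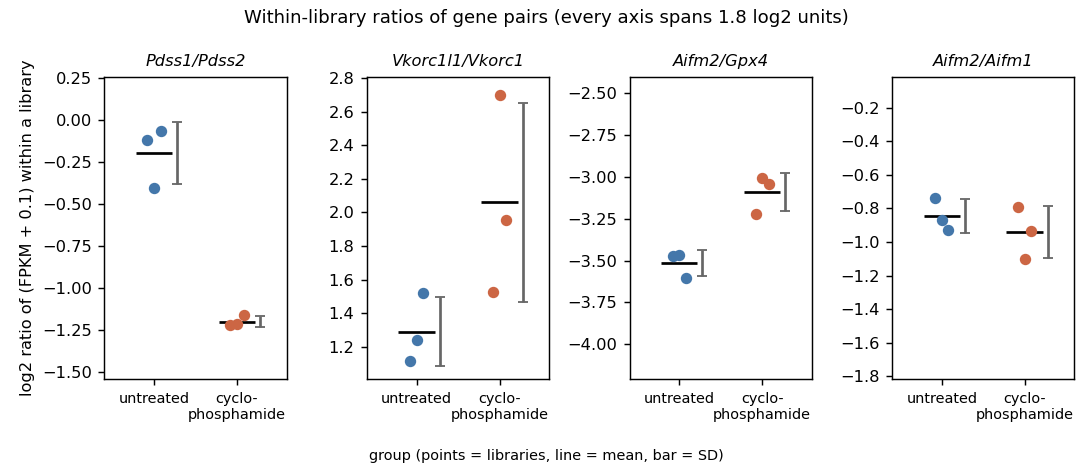
Log2 ratio of 2 genes within each library (vertical axes, all of equal span) for 4 pairs, with the mean and SD of the 3 libraries of each group. Pdss1/Pdss2 goes from -0.19 to -1.20 on average, Aifm2/Gpx4 goes from -3.52 to -3.09, and Aifm2/Aifm1 overlaps between the groups.

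In the GPX4 axis, 6 of 7 genes rose (33.1% of all genes tested) and Gpx4 itself fell, with a median of 2.62. The genes with the smallest p were Slc7a11 (5.25 ± 0.10), Gclc (3.01 ± 0.06) and Gclm (2.62 ± 0.06). Gpx4 had 153 ± 5.22 FPKM untreated and 116 ± 8.69 FPKM treated, and the log2 ratio of Aifm2 to Gpx4 was -3.52 ± 0.08 and -3.09 ± 0.12 (SD, n = 3, exact permutation test, p = 0.1). All 3 treated ratios exceeded all 3 untreated ones. Aifm1, the paralog of Aifm2 in mitochondria, had 24.0 ± 1.88 and 26.0 ± 3.27 FPKM (log2 fold change 0.11 ± 0.10, SE, limma, adjusted p = 0.36), and the Aifm2 to Aifm1 ratio overlapped between groups (difference -0.10, exact permutation test, p = 0.4). With upper-quartile scaling the value of Aifm1 was negative (-0.00097).

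Of the 5 genes of the AIF family and of the myristoylation that tethers FSP1 to membranes, 1 rose and 2 fell (33.1% and 35.8% of all genes tested). Nmt1, an N-myristoyltransferase, rose from 23.6 ± 0.74 to 32.9 ± 1.46 FPKM (log2 fold change 0.48 ± 0.06, SE). Nmt2, the second such enzyme, was lower by a smaller step (-0.25 ± 0.07, SE), a call lost without untreated replicate 1 (-0.23), untreated replicate 3 (-0.21) or cyclophosphamide replicate 3 (-0.25). Aifm3 fell from 102 reads to 33 reads per group (-1.17 ± 0.21), where a pseudocount of 1 gave -0.33. Among 7 tested genes listed around other GPX4-independent defence, 2 rose and 4 fell (33.1% and 35.8% of all genes tested). Not every gene listed acts as a defence, so these counts give no direction of defence. Dhcr7 (-0.81 ± 0.07, SE), named after its values were seen, was among those that fell. Mboat1 and Mboat2, acyltransferases that remodel phospholipids, fell from 4.72 ± 0.66 to 0.71 ± 0.11 FPKM (-2.57 ± 0.16) and from 8.42 ± 0.53 to 3.14 ± 0.17 FPKM (-1.39 ± 0.09). Prdx6, a peroxiredoxin that reduces phospholipid peroxides, rose from 41.9 ± 1.103 to 106 ± 14.8 FPKM (1.33 ± 0.10).

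Of 10 tested genes around the ubiquinone pool that DHODH also uses, 7 fell and 1 rose (35.8% and 33.1% of all genes tested), with a median of -0.37. These are not separate enzymes. Sdha, Sdhb, Sdhc and Sdhd all encode subunits of succinate dehydrogenase, and Etfa and Etfb subunits of the electron transfer flavoprotein. Gpd2, the mitochondrial glycerol phosphate dehydrogenase, fell from 11.3 ± 0.34 to 3.76 ± 0.16 FPKM (log2 fold change -1.56 ± 0.08, SE), Etfb, a subunit of the electron transfer flavoprotein, from 6.15 ± 1.71 to 1.95 ± 0.18 FPKM (-1.58 ± 0.19), and Sdhc, a membrane anchor of succinate dehydrogenase, from 31.4 ± 0.67 to 19.9 ± 0.98 FPKM (-0.65 ± 0.06). The gene that rose was Sqor, the sulfide quinone reductase, at 0.81 ± 0.10, named after its value was seen. In pyrimidine synthesis, nucleoside transport and uridine kinases around Dhodh, 3 of 5 tested genes rose (33.1% of all genes tested). Among them Cad and Umps encode the steps before and after DHODH, and of this pair only Cad rose. Cad, which catalyses the steps before DHODH, rose from 14.9 ± 0.998 to 27.3 ± 2.06 FPKM (0.87 ± 0.08), and Slc29a1, a nucleoside transporter, from 2.83 ± 0.14 to 4.70 ± 0.44 FPKM (0.71 ± 0.11). Uck2, a uridine kinase, was called at 0.22 ± 0.08 (limma, adjusted p = 0.046), and the call was lost without any one library except untreated replicate 2, at 0.16 to 0.25, and also with upper-quartile scaling (0.10) and without the filter on low reads. Umps, which follows DHODH and was named after its values were seen, did not pass (-0.26 ± 0.10, limma, adjusted p = 0.052) but did without cyclophosphamide replicate 2 (-0.36), with upper-quartile scaling (-0.37) and with a filter of mean 1 CPM, while it was -0.16 without cyclophosphamide replicate 3.

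**Figure D5:**
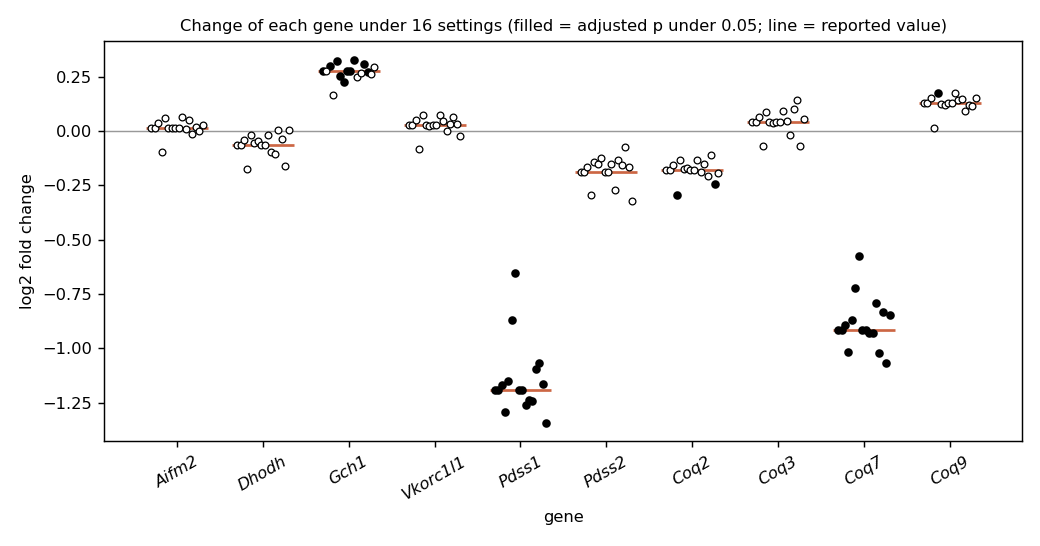
Log2 fold change of each of the 10 genes (vertical axis) under 16 settings, namely the reported one (orange line) and 15 alternatives; filled points passed the adjusted threshold. Pdss1 and Coq7 pass in all 16, with the smallest sizes (-0.65 and -0.58) at a pseudocount of 1, and Aifm2, Dhodh, Vkorc1l1, Pdss2 and Coq3 pass in none.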

How the data were processed

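Polyadenylated RNA of 6 libraries was measured (3 untreated, 3 cyclophosphamide), grouped by the treatment label. The submitters' processing notes name CASAVA, HISAT2 version 2.0.5 and build GRCm39; counting tool, strand setting and annotation were not given in the sources used here. The deposited table carries a name for raw counts, yet holds FPKM computed by the authors: multiplied by the gene length in the table, 100% of values were whole multiples of 1 step per library, within 0.01 of a read, which gave the reads. Its coordinates equal GENCODE M21 (GRCm38) for 98.3% of 54495 shared gene IDs, including all 10 genes described.

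Genes entered with at least 10 reads in at least 3 libraries and 15 in all (14885 genes). limma version 3.58.1 in R version 4.3.3, with a mean-variance trend, was fitted on log2(FPKM + 0.1), two-sided, a scale that understates changes of low genes. The fit was tested on simulated data in which few genes changed, which does not cover data where 68.9% of genes passed. Counting error is part of the spread between libraries. Ratios were compared within libraries; the planned Gch1 to Gchfr ratio was left out because Gchfr had 3 reads. No label pairs libraries of the same replicate number, so the reported fit has no block. Alternatives were the replicate block, 3 scalings, 2 pseudocounts, 2 filters, limma-voom on recovered reads and leaving out each library.

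The 10 genes and the lists were chosen with earlier results of these data known. From each list the 3 called genes with the smallest p were named, with the genes of ratios; others are marked, and some genes that this rule picked are not reported here. Of 113 listed symbols 1 was matched by its older symbol and 1 was not matched. Promoter sequences are from RefSeq (GRCm38.p6).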

Additional observations from a re-analysis of the deposited data

How the results depend on the processing

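The falls of Pdss1 and Coq7 kept their direction and stayed past the threshold in all 15 alternatives. The count of the 10 genes that were higher, 1 as reported, was 0 with the replicate block, 0 with upper-quartile scaling, 2 with scaling to total reads (Gch1 and Coq9) and 0 to 1 when leaving out each library. Under upper-quartile scaling the signs of Aifm2 (-0.096), Vkorc1l1 (-0.085), Coq3 (-0.067) and, outside the 10, Aifm1 (-0.00097) turned negative. Leaving out each library gave -0.015 to 0.053 for Aifm2, -0.16 to 0.0057 for Dhodh, -0.021 to 0.067 for Vkorc1l1 and -0.068 to 0.14 for Coq3, ranges that cross 0, and -0.32 to -0.07 for Pdss2, -0.24 to -0.11 for Coq2, -0.36 to -0.16 for Umps, 0.015 to 0.19 for Aifm1 and 0.45 to 1.04 for the ratio of Vkorc1l1 to Vkorc1, which do not. Of 150 values of the 10 genes under alternatives, 131 kept direction and call, 6 lost the call (all Gch1), 3 gained one (Coq2 in 2, Coq9 in 1) and 10 changed sign. Of 540 values of 36 other genes of the lists, chosen by the naming rule or after their values were seen, 512 kept both, 23 lost the call, 4 gained it and 1 changed sign; the cause was not tested.

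With the replicate number as a block, Gch1 had the same log2 fold change of 0.28 and an adjusted p of 0.057 in limma, and 9937 genes were called in place of 10257. The block also ended the calls of Coq4 (adjusted p = 0.054 in limma) and Uck2 (adjusted p = 0.087) and added that of Umps (adjusted p = 0.032), and changed no other call of a gene named. Deviations from the group means of same-numbered libraries correlated at -0.080, 0.0046 and -0.033, and those of libraries with unlike numbers at -0.087 to 0.12. With 3 libraries per group the deviations are bound to each other, so these values cannot settle whether same-numbered libraries shared a culture or batch. Depth limits Pdss1 most, with 36 to 130 reads per library.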
